A study of Mus musculus and blank sample with 91 samples.

Results

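The Oscillospiraceae are a family of strictly anaerobic gut bacteria of the order Clostridiales, and 105 of the 2295 amplicon sequence variants (ASVs) deposited for this mouse experiment carried that family name. The members were all ASVs whose Family was given as Oscillospiraceae, summed by genus and species in each fecal sample. Every one of the 105 ASVs was named to the single genus Oscillibacter, so family and genus values are the same here. The ASVs fell under 3 species names, Oscillibacter valericigenes, Oscillibacter_sp6 and Oscillibacter_NA, the last being sequences the authors placed in the genus without a species. They held 92312 of 5612448 counts, or 1.64% of all counts.

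Fecal DNA of female C57BL/6 mice was sequenced by the authors with primers for the V3 and V4 regions of the bacterial 16S rRNA gene. Naïve mice received no treatment. CFA mice received Complete Freund's Adjuvant alone. EAE mice received MOG35–55, a peptide of myelin oligodendrocyte glycoprotein, in the same adjuvant, together with pertussis toxin on days 0 and 2, which induces experimental autoimmune encephalomyelitis (EAE), a mouse model of multiple sclerosis. The labels give adjuvant only for CFA mice, so peptide and pertussis toxin cannot be told apart in a comparison of EAE with CFA mice. Samples were taken at -2, 8, 14, 19 and 29 days post immunization (dpi), from 6 mice per treatment and day, except 5 from EAE mice on day 14 and 5 with counts from CFA mice on day 29. This gave 88 samples, with 30 from naïve, 29 from CFA and 29 from EAE mice. From 14 dpi on the EAE samples bear other mouse numbers than at -2 and 8 dpi, and the labels do not join them. Mice were housed 2 to 3 per cage with treatment assigned by cage, and cage mates share gut bacteria, so cage and treatment cannot be told apart here and p-values over mice may be too small.

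Oscillibacter are rod-shaped anaerobes that ferment carbohydrates to short-chain fatty acids. The species O. valericigenes is named for the valeric acid it makes. The family lies close to the Ruminococcaceae, and reference databases draw the line between both families differently. Every value below is a share of a sample's counts, so a lower share of Oscillospiraceae cannot be told apart from more reads of other bacteria.

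Total counts ranged from 9202 to 102437 per sample, with a median of 64586. The 4 lowest totals, from 9202 to 17439, were all from EAE mice. A floor of 3 counts was at most 0.0326% of a sample. The 105 ASVs gave 215 values above 0 over all samples, of which 2 were of 3 counts and the other 213 were of 47 counts or more, with a median of 388. A sample without Oscillospiraceae is therefore one in which no such ASV was called, and its true share may lie above the floor.

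The primers hold ambiguous bases, and they had been left on the reads. With the primers removed, the 105 ASVs came down to 15 distinct sequences, among 486 in the whole series. All but 1 of the 15 were 404 bases long, and the remaining one had 405. They are called sequences A to O here, in order of their mean share over all samples. Of the 105 ASVs, 62 were seen in a single sample and none was seen in more than 9 samples, while sequence A was seen in 40 samples as 15 primer variants. Bacterial sequences are described by their lengths and mismatches and are not printed.

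Oscillospiraceae were a minor part of the community in most samples. They were found in 81 of 88 samples, with a median of 1.50% and a highest value of 6.04%, and they ranked 9 among the 26 families by mean share. The median was 1.37% over naïve, 1.53% over CFA and 1.55% over EAE samples. The 7 samples without the family were 2 from naïve, 2 from CFA and 3 from EAE mice.

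**Figure D1:**
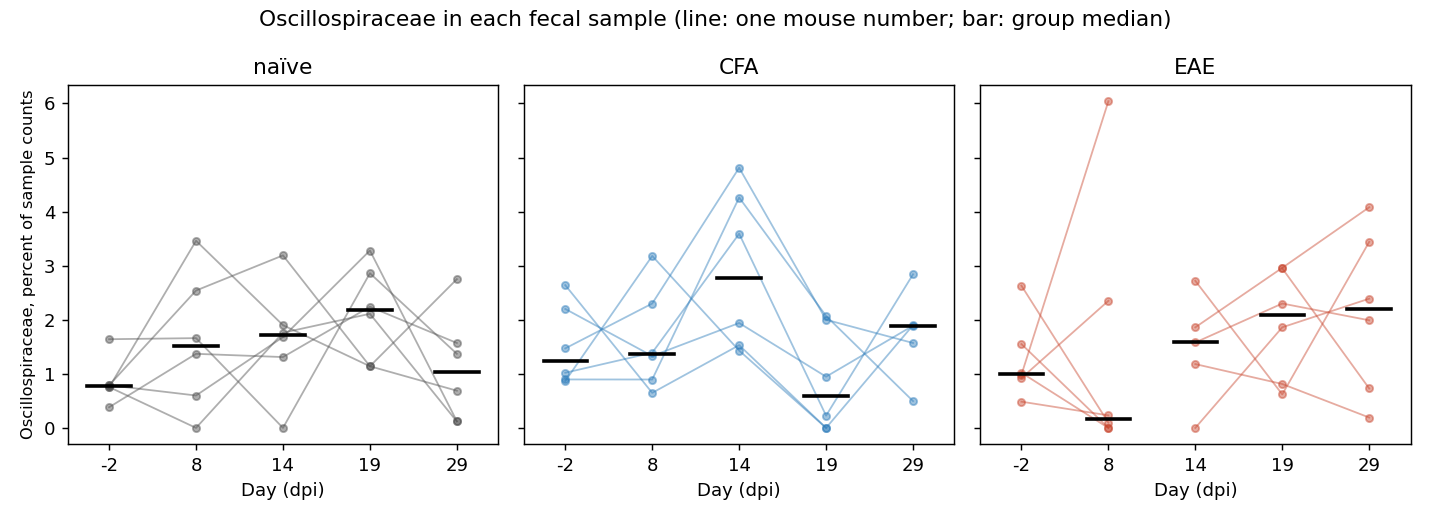
Oscillospiraceae as percent of a sample's counts (vertical axis) by day in dpi (horizontal axis), with 1 point per sample, lines joining samples of the same mouse number and black bars at group medians. Medians lie between 0.164% (EAE, 8 dpi) and 2.77% (CFA, 14 dpi), and the 3 treatments overlap at every day.

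At -2 dpi, before any treatment, every mouse carried the family. Its share ran from 0.382% through a median of 0.772% to 1.64% in naïve mice. It ran from 0.867% through 1.25% to 2.64% in CFA mice and from 0.485% through 1.000% to 2.63% in EAE mice. The groups overlapped, and CFA exceeded naïve mice by 0.666 percentage points (two-sided exact permutation test, p = 0.0779, adjusted over 23 families to 0.448).

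At 8 dpi the EAE group was the most uneven. The family was at 0 in 2 of the 6 EAE mice, at 0.0965% and 0.232% in another 2, and at 2.35% and 6.04% in the last 2. The sample at 6.04%, the highest of all 88, had a total of only 17439 counts. An EAE sample at 0 on that day, of mouse 555, had the lowest total, 9202. Naïve mice ranged from 0 to 3.46% with a median of 1.52%, and CFA mice from 0.648% to 3.18% with a median of 1.36%. The 3 groups overlapped, with 4 of the 6 EAE values below every CFA value and 1 above every other value of that day.

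At 14 dpi CFA mice reached their highest level, from 1.43% through a median of 2.77% to 4.81%. EAE mice ranged from 0 through 1.58% to 2.72%, and naïve mice from 0 through 1.72% to 3.19%. The mean was 2.93% ± 1.48 (SD, n = 6) in CFA and 1.47% ± 0.998 (SD, n = 5) in EAE mice, a difference of -1.46 percentage points for EAE minus CFA (exact permutation p = 0.0996, adjusted p = 0.208). The 3 groups overlapped. EAE mouse 591 and naïve mouse 559 were at 0. On the centred log ratio scale, with 0.5 added to each count, EAE minus CFA was -4.21 log2 units (exact permutation, adjusted p = 0.0311). CFA minus naïve was 3.11 (exact permutation, adjusted p = 0.0498), and both passed there. A mouse at 0 lies far below the others on that scale, and its part in both differences was not tested. The share of families called on that scale is not given.

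At 19 dpi the CFA group was the low one. Its values were 0 in 2 mice, 0.227% in 1, and 0.947%, 2.00% and 2.07% in the others, with a median of 0.587%. Naïve mice ranged from 1.14% to 3.28% with a median of 2.17%, and EAE mice from 0.620% to 2.96% with a median of 2.08%. CFA mice were lower than naïve mice by 1.25 percentage points on average, with means of 0.875% ± 0.966 (SD, n = 6) and 2.13% ± 0.874 (SD, n = 6), a difference that did not pass after adjustment (exact permutation p = 0.0368, adjusted p = 0.279). EAE exceeded CFA mice by 1.04 percentage points (exact permutation p = 0.0952, adjusted p = 0.243).

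At 29 dpi EAE mice had a mean of 2.14% ± 1.51 (SD, n = 6), with values from 0.192% to 4.08%. Naïve mice had a mean of 1.10% ± 1.01 (SD, n = 6) and CFA mice 1.74% ± 0.842 (SD, n = 5). The difference of 1.04 percentage points between EAE and naïve mice was smaller than the spread within the EAE group (exact permutation p = 0.186, adjusted p = 0.357).

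Over the 15 comparisons between treatments, Oscillospiraceae percent passed in 0 after Benjamini-Hochberg adjustment over families, and 1 had an unadjusted p under 0.05. The background was 10.4% of 345 family tests called in these comparisons. The main count test, edgeR's quasi-likelihood test on family counts, also called 0 of 15, with 0 at an unadjusted p under 0.05, against a background of 20.9%. DESeq2 called 0 as well, again with 0 at an unadjusted p under 0.05. The fitted log2 fold changes ran from -1.16 to 0.96. For EAE minus naïve mice at 8 dpi the value was -1.15 with a standard error of 1.21 (edgeR adjusted p = 0.528), and for EAE minus CFA mice it was -1.16 with the same standard error (edgeR adjusted p = 0.526). A change of 2-fold lies within such errors, so these tests do not show that the groups were alike.

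Within each treatment the later days were compared with -2 dpi. All 6 naïve mice were higher at 19 dpi than at -2 dpi, by 1.28 percentage points on average (exact sign-flip permutation p = 0.0312, the smallest that 6 pairs allow, adjusted p = 0.479). In CFA mice the share was higher at 14 dpi than at -2 dpi in 4 of 6 mice, by 1.41 percentage points (exact sign-flip permutation p = 0.188, adjusted p = 0.479). In EAE mice at 8 dpi it was higher in 2 of 6. Of 12 comparisons with -2 dpi, 0 passed in percent, with 1 at an unadjusted p under 0.05 and a background of 3.26%. In counts 0 passed by edgeR or DESeq2, with 0 at an unadjusted p under 0.05 by either and a background of 3.99%. The fitted log2 fold change of naïve mice at 19 dpi was 1.19 with a standard error of 1.21 (edgeR adjusted p = 0.947). That of EAE mice at 8 dpi was -0.86, and it became -3.34 with the mouse number as a block (edgeR adjusted p = 0.477) and -1.23 with the subject number (edgeR adjusted p = 0.717).

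The change since -2 dpi was also compared between treatments. Without a block, the fitted difference furthest from 0 was that of CFA minus naïve mice at 19 dpi, -2.04 on the log2 scale with a standard error of 1.71 (edgeR adjusted p = 1.00, unadjusted p = 0.235). With the mouse number as a block it was that of EAE minus naïve mice at 8 dpi, at -3.75 (edgeR adjusted p = 0.658), against -1.45 without the block and -1.65 with the subject number. Of these 12 comparisons 0 were called by edgeR or DESeq2, with 0 at an unadjusted p under 0.05 by either and a background of 7.25%.

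Each mouse's mean over 14, 19 and 29 dpi gives 1 value per animal for the later part of the experiment. EAE mice ranged from 0.729% to 2.97%, CFA mice from 0.765% to 2.80% and naïve mice from 1.24% to 2.36%. The means were 1.86% ± 0.758 (SD, n = 6) in EAE, 1.79% ± 0.773 (SD, n = 6) in CFA and 1.62% ± 0.408 (SD, n = 6) in naïve mice. EAE minus naïve was 0.239 percentage points (exact permutation p = 0.509, adjusted p = 0.650), and 0 of the 3 comparisons passed, with 0 at an unadjusted p under 0.05, while the background was 29.0% of family tests. EAE mouse 594 had 2 of the 3 days and CFA mouse 548 also had 2.

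Measured against their own order, the Clostridiales, the Oscillospiraceae differed between EAE and naïve mice in the mean of these days, and on none of the single days. They made up 3.32% ± 0.955 (SD, n = 6) of Clostridiales counts in EAE mice and 4.98% ± 0.789 (SD, n = 6) in naïve mice, a difference of -1.66 percentage points (exact permutation p = 0.0130, adjusted over 11 families to 0.0286). EAE mice ranged from 1.76% to 4.56% and naïve mice from 3.94% to 5.94%, so 2 EAE mice lay within the naïve range. By day, EAE minus naïve was -2.92 percentage points at 14 dpi (exact permutation, adjusted p = 0.136) and -2.82 at 19 dpi (exact permutation, adjusted p = 0.0635). At 29 dpi it had the other sign, with 3.93% in EAE and 3.29% in naïve mice, a difference of 0.640 (exact permutation, adjusted p = 0.949). The background is high here, since 45.5% of the 11 Clostridiales families were called in this comparison. Leaving out each EAE or naïve mouse in turn, chosen after seeing the data, kept the adjusted p between 0.0238 and 0.0476. CFA mice, at 3.96% ± 1.46 (SD, n = 6), were between both groups, with adjusted p = 0.365 against naïve mice and 0.471 for EAE against CFA (exact permutation tests).

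The order as a whole moved in the other direction. Clostridiales made up 52.9% ± 8.74 (SD, n = 6) of counts in EAE mice, 40.9% ± 7.79 (SD, n = 6) in CFA mice and 30.2% ± 7.45 (SD, n = 6) in naïve mice over these days, and EAE exceeded naïve mice by 22.6 percentage points (exact permutation p = 0.00433, unadjusted). With the percent of counts at a difference of 0.239 and the percent of Clostridiales at -1.66, the sign of the difference between EAE and naïve mice followed the denominator.

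**Figure D2:**
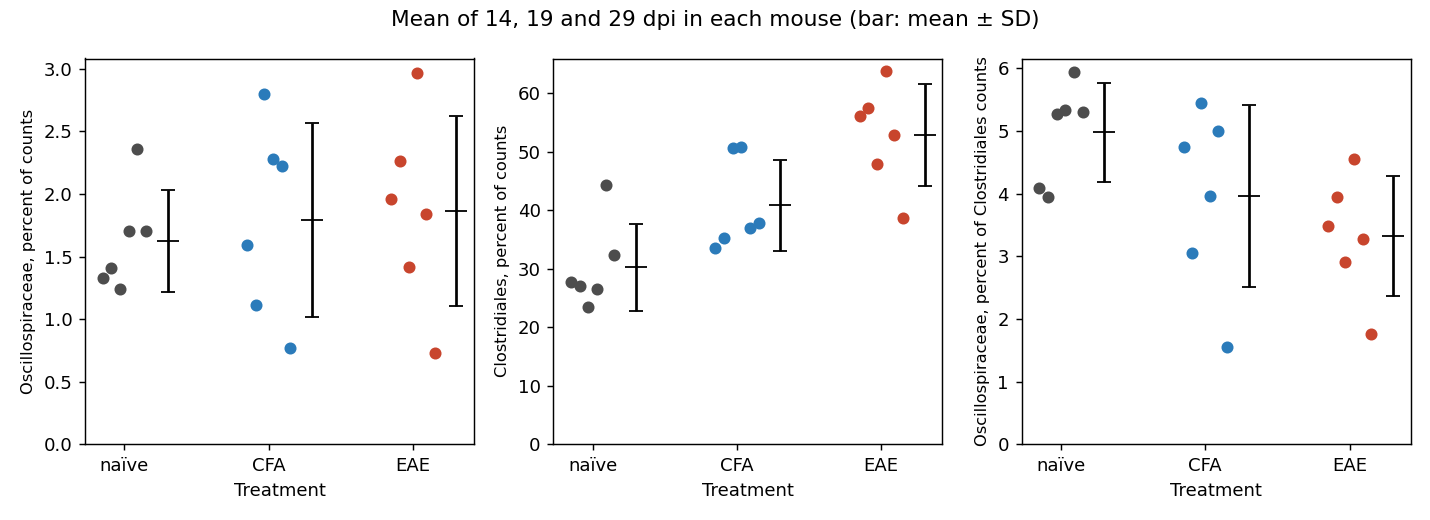
Mean over 14, 19 and 29 dpi in each mouse (points, 6 per treatment) of Oscillospiraceae as percent of counts, Clostridiales as percent of counts and Oscillospiraceae as percent of Clostridiales counts, with bars at mean ± SD. Oscillospiraceae overlap between treatments on the left, while on the right EAE mice range from 1.76% to 4.56% and naïve mice from 3.94% to 5.94%.

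The relatives in the order divided in that comparison. As shares of Clostridiales over 14, 19 and 29 dpi, Ruminococcaceae, the plant-fiber degraders closest to Oscillospiraceae, were at 35.0% ± 6.78 (SD, n = 6) in EAE and 16.7% ± 4.31 (SD, n = 6) in naïve mice (exact permutation, adjusted p = 0.0119). Lachnospiraceae, a large family that holds many butyrate producers, were at 34.3% ± 14.0 (SD, n = 6) against 68.1% ± 10.2 (SD, n = 6), lower in EAE mice (exact permutation, adjusted p = 0.0159). Clostridiaceae were at 14.0% against 4.91% (exact permutation, adjusted p = 0.0286). Peptostreptococcaceae were at 8.76% in EAE mice and were not called in naïve or CFA mice on these days (adjusted p = 0.0119 against naïve mice, exact permutation). Eubacteriaceae, at 2.95% and 1.88%, did not pass (exact permutation, adjusted p = 0.240). These shares sum to a whole and are not independent of each other. In this mean Oscillospiraceae, like Lachnospiraceae, were lower in EAE mice, and Ruminococcaceae were higher. At 29 dpi alone the median Oscillospiraceae share was 4.44% in EAE and 4.05% in naïve mice.

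Levels across all 88 samples were compared as well. The rank correlation of Oscillospiraceae with Lachnospiraceae was 0.70, against 0.26 with Ruminococcaceae, 0.084 with Clostridiaceae, -0.063 with Eubacteriaceae and -0.047 with Peptostreptococcaceae, and -0.29 with Lactobacillaceae, the most abundant lactic acid bacteria here. These correlations describe samples that share mice, cages and a common total. The 5 of 26 frequent genera outside the family with the highest rho were Lachnospiraceae_NK4A136-Clostridium XlVa (0.60), Flavonifractor of the Ruminococcaceae (0.54), Roseburia (0.49), Lachnospiraceae_NA (0.43) and Lachnospiraceae_NK4A136/Hungatella (0.42). The 3 lowest were Prevotella (-0.30), Lactobacillus (-0.29) and Ruminococcaceae_UCG-010 (-0.23). For Roseburia, a butyrate producer, rho was 0.66 in naïve, 0.75 in CFA and 0.23 in EAE samples, and the difference was not tested.

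The 3 species names split the family unevenly. Oscillibacter_NA held 46.5% of the family's counts and was found in 65 samples. O. valericigenes held 44.2% and was found in 68 samples. Oscillibacter_sp6 held 9.30% and was found in 31 samples, never above 0.852% of a sample. In EAE samples the split was 51.1% O. valericigenes and 38.6% Oscillibacter_NA, and in naïve samples 39.1% and 52.7%, as a description over pooled counts.

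O. valericigenes was found in 2 of 6 naïve mice at -2 dpi, with a highest value of 0.911%, and in 6 of 6 at 19 dpi, from 0.600% to 1.66%. In EAE mice it was found in 3 of 6 at -2 dpi, at most 1.21%. Under the later mouse numbers it was in 6 of 6 at 19 dpi, from 0.527% through a median of 1.01% to 2.30%. At 29 dpi it was also in 6 of 6, from 0.192% through 1.02% to 1.99%. In CFA mice it was found in 5 of 6 at -2, 8 and 14 dpi, in 4 of 6 at 19 dpi and in 5 of 5 at 29 dpi. Presence was not tested between days.

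Oscillibacter_NA was found in 6 of 6 EAE mice at -2 dpi, from 0.485% through a median of 0.924% to 1.42%, and in 2 of 6 at 8 dpi. In CFA mice it was found in 6 of 6 at 14 dpi, from 0.738% to 2.14%, and in 1 of 6 at 19 dpi, at 1.17%. Naïve mice carried it in 6 of 6 at 19 dpi, from 0.290% to 2.32%. Its presence in 1 of 6 CFA against 6 of 6 naïve mice at 19 dpi gave p = 0.0152 by a two-sided Fisher's exact test and an adjusted p of 0.360 over 95 species names.

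Oscillibacter_sp6 was found in 0 of 6 EAE mice at -2 dpi, and its 13 unadjusted p-values under 0.05 in counts all set that group against another day or treatment. Of 117 tests of the 3 species, edgeR called 0, with 13 at an unadjusted p under 0.05 and a lowest adjusted p of 0.0638, against a background of 6.59%. DESeq2 called 0, with 5 at an unadjusted p under 0.05. As a genus, Oscillibacter was called in 0 of 39 comparisons by edgeR and DESeq2, with 0 at an unadjusted p under 0.05 by either, where the background over genera was 6.71%.

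By presence alone the family was called in 0 of 15 comparisons by Fisher's exact test, where the background over families was 2.90%, and its lowest unadjusted p was 0.455. The species were also called in 0, with 1 unadjusted p under 0.05, against a background of 0.351%.

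Below the species names, the family was a small set of sequences that differed between mice and days. A sample held at most 6 of the 15 sequences and a median of 2. It held 1 sequence in 22 samples, 2 in 25, 3 in 17 and 4 or more in 17. The leading sequence made up a median of 63.7% of the family's counts in the 81 samples that had any. Sequence A, of Oscillibacter_NA, led in 31 samples and sequence B, of O. valericigenes, in 19.

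**Figure D3:**
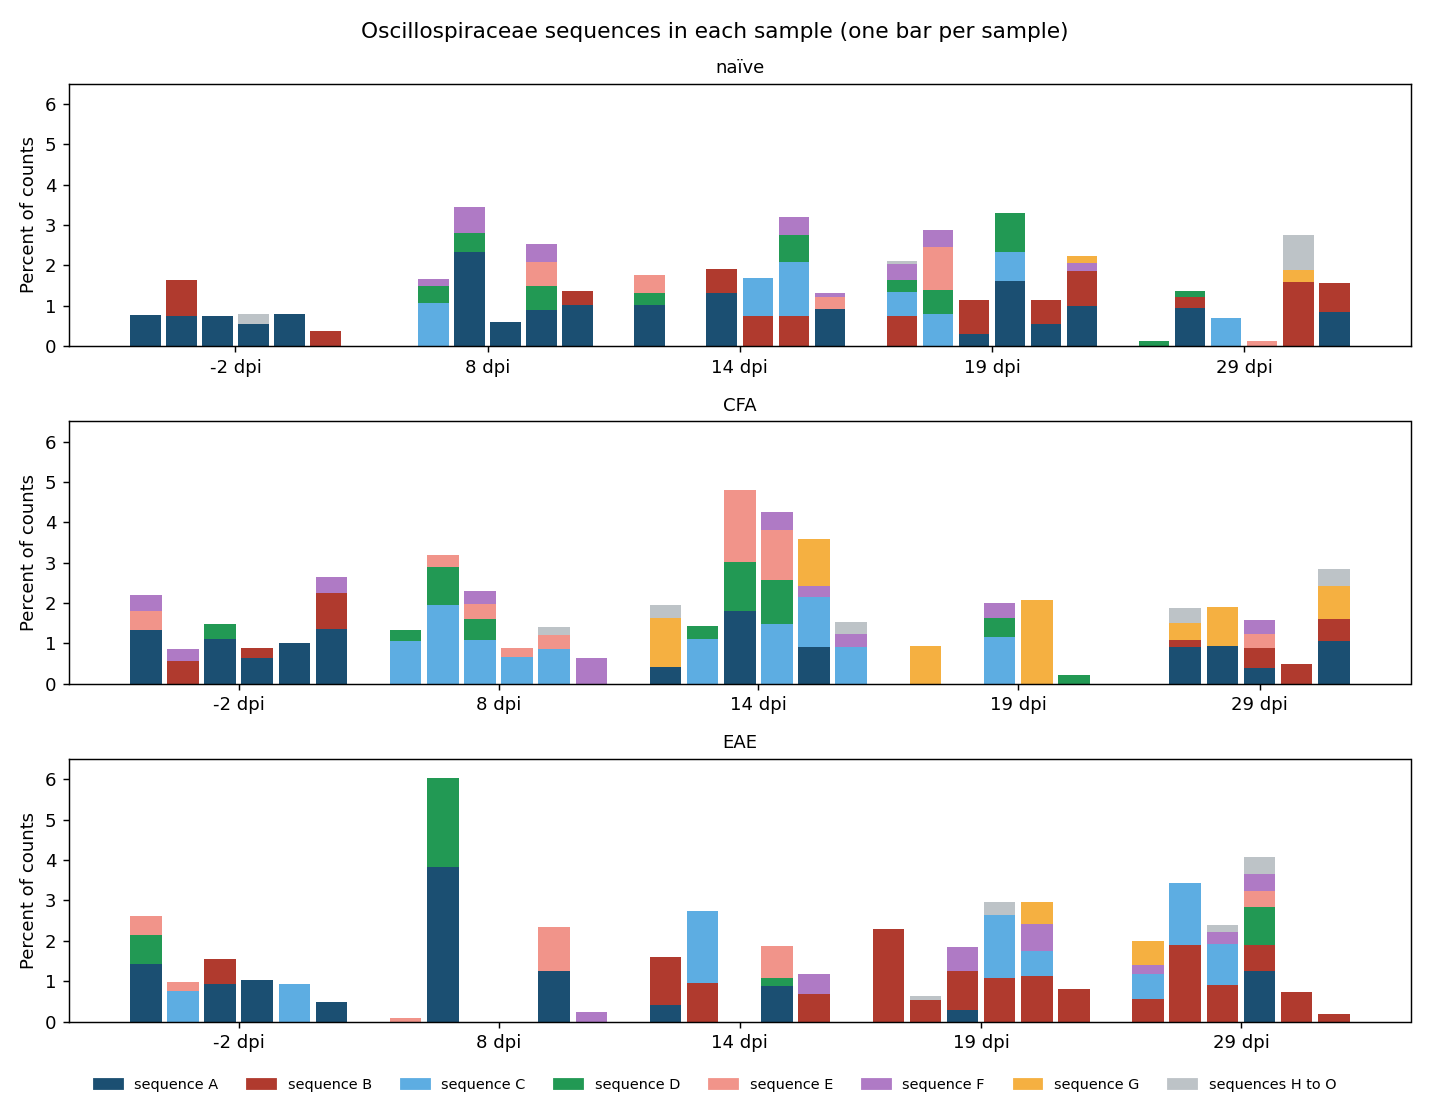
Oscillospiraceae in each sample as percent of its counts (vertical axis), with 1 stacked bar per sample, grouped by day and treatment and colored by primer-free sequence. Sequence A (dark blue) is common at -2 dpi, sequence C (light blue) leads 5 of 6 CFA samples at 8 dpi, and sequence B (red) is in all 12 EAE samples of 19 and 29 dpi.

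The 8 sequences with the highest mean share divide by species name. Oscillibacter_NA is represented by sequence A, found in 40 samples with a mean of 0.460% over all samples, and sequence C, in 25 samples with a mean of 0.300%. O. valericigenes is represented by sequence B, in 36 samples with a mean of 0.318%, sequence D, in 23 samples with 0.160%, sequence E, in 19 samples with 0.122%, and sequence G, in 11 samples with 0.105%. Oscillibacter_sp6 is represented by sequence F, in 25 samples with a mean of 0.109%, and sequence H, in 4 samples. Sequences I to O were in at most 3 samples each, and sequences N and O rest on 3 counts each.

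Several of these differ by very few bases. Sequences A and C differ at 2 of 404 positions (99.5% identity), B and E at 2, E and G at 1, B and G at 3, and F and H at 1. By contrast A and B differ at 28 positions (93.1% identity), and B and D, both named O. valericigenes, at 19 (95.3%). Outside the family, the nearest sequence to A and to C was a Flintibacter of the Ruminococcaceae at 14 mismatches (96.5% identity), closer than A is to B. For B the nearest was also a Flintibacter, at 32 mismatches (92.1%).

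Most near-identical pairs were rarely called in the same sample. Of 63 samples with sequence A or C, 2 held both, a naïve mouse at 19 dpi with 1.62% and 0.709% and a CFA mouse at 14 dpi with 0.920% and 1.22%. Of 53 samples with B or E, 2 held both, of 30 samples with E or G, 0 did, and of 29 with F or H, 0 did. The pair B and G was together in 6 of 41. Among sequences that differ more, A and B were together in 17 of 59 samples and B and F in 12 of 49, while B and D were together in 4 of 55 and D and G, which differ at 22 positions, in 0 of 34. These counts are a description, and the part of ASV calling and chimera removal in them was not tested.

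**Figure D4:**
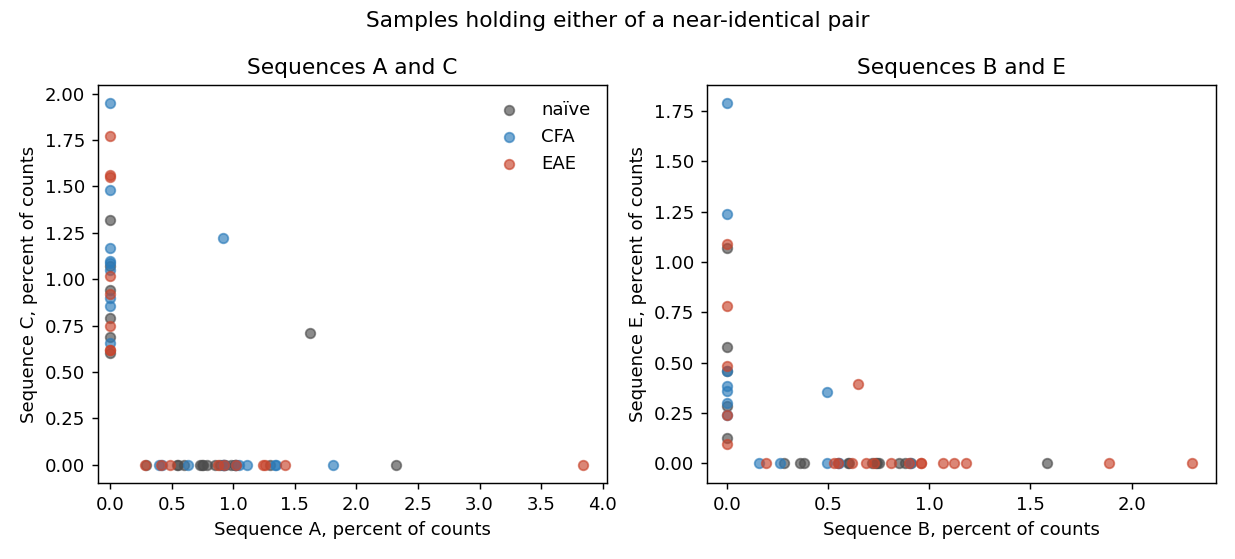
Percent of counts of sequence A against sequence C (left) and of sequence B against sequence E (right), with 1 point per sample that held either, colored by treatment. Points lie along the axes, with 2 of 63 samples holding both A and C and 2 of 53 holding both B and E.

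Sequence B was called by edgeR between EAE and CFA mice at 14 and 19 dpi, and by Fisher's exact test of presence on neither day after adjustment. At 19 dpi it was found in 6 of 6 EAE mice, at 2.30%, 0.527%, 0.957%, 1.07%, 1.12% and 0.812%, and in 0 of 6 CFA mice. Naïve mice carried it in 4 of 6, with a highest value of 0.878%. EAE and CFA mice did not overlap in B, while EAE and naïve mice did. The share of all sequences that did not overlap between EAE and CFA mice on that day is not given. Sequence G, which differs from B at 3 positions, was in 2 CFA mice on that day, at 0.947% and 2.07%. With B, E and G merged, a setting added after seeing the data, the groups overlapped, with 6 of 6 EAE and 2 of 6 CFA mice positive, and neither edgeR nor Fisher's exact test (adjusted p = 0.701) called the difference. For B alone, the mean of 1.13% ± 0.613 (SD, n = 6) in EAE mice against no call in CFA mice passed (edgeR adjusted p = 0.0372), in a comparison in which 14.7% of 204 sequences were called. CFA mice were also below naïve mice, in which B had a mean of 0.511% ± 0.408 (SD, n = 6) (edgeR adjusted p = 0.0424), where 12.7% of sequences were called. No fold is given, since a sequence that was not called may have been present above the floor. Fisher's exact test of presence, chosen after seeing the data, gave p = 0.00216 for 6 of 6 against 0 of 6, which was 0.0736 after adjustment over 204 sequences.

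The same sequence was in all 6 EAE mice at 29 dpi, from 0.192% through a median of 0.688% to 1.89%. It was in 3 of 5 EAE mice at 14 dpi, 0 of 6 at 8 dpi and 1 of 6 at -2 dpi. In CFA mice it was in 3 of 6 at -2 dpi, in 0 of 6 at 8, 14 and 19 dpi, and in 4 of 5 at 29 dpi, where B was not called between EAE and CFA mice. Naïve mice carried it in 1 to 4 of 6 on each day. At 14 dpi EAE minus CFA passed (edgeR adjusted p = 0.0485), where 8.82% of sequences were called, and CFA minus naïve passed (edgeR adjusted p = 0.0453), where 8.33% were called. By Fisher's exact test of presence, B gave p = 0.0606 for EAE against CFA mice (adjusted p = 0.386). For CFA against naïve mice the unadjusted Fisher p was 0.182. With B, E and G merged, CFA mice 543, 545, 546 and 547 held 1.21%, 1.79%, 1.24% and 1.17% at 14 dpi. EAE mice then held at most 1.18% and naïve mice at most 0.750%. In that merged setting edgeR called neither difference.

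Sequences A and C differed by day in CFA mice, as a description, since 0 of 108 sequence tests against -2 dpi within a treatment passed by edgeR, with 47 at an unadjusted p under 0.05. DESeq2 called 27 of these 108 tests, with no background over all sequences given. At -2 dpi A was in 5 of 6 CFA mice, at 1.34%, 1.11%, 0.633%, 1.02% and 1.35%, and C was in 0. At 8 dpi A was in 0 of 6 and C was in 5, at 1.05%, 1.95%, 1.09%, 0.658% and 0.857%. Of the mice with A at -2 dpi, 4 had C at 8 dpi. At 14 dpi A was in 3 of 6 and C in 4 of 6, with 1 mouse holding both, at 19 dpi A was in 0 and C in 1, and at 29 dpi A was in 4 of 5 and C in 0 of 5. Summed over A, C and the near-identical sequence J, the CFA mean went from 0.908% ± 0.516 (SD, n = 6) at -2 dpi to 0.934% ± 0.636 (SD, n = 6) at 8 dpi, so the sums differed by less than their SD.

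At 8 dpi naïve mice still carried A in 4 of 6, with a mean of 0.805% ± 0.860 (SD, n = 6). Against CFA mice A passed (edgeR adjusted p = 0.0390), in a comparison in which 3.92% of sequences were called. Oscillibacter_NA, the species name of both A and C, was in 5 of 6 naïve and 5 of 6 CFA mice on that day. EAE mice at 8 dpi carried A in 2 of 6 and C in 0 of 6. Against CFA mice both passed in edgeR (edgeR adjusted p = 0.0362 for A and 0.0335 for C), where 7.35% of sequences were called. By Fisher's exact test of presence, A gave p = 0.455 and C p = 0.0152 (adjusted p = 0.343). For A in CFA against naïve mice at 8 dpi the Fisher p was 0.0606, unadjusted, and it did not pass after adjustment. With A, C and J merged, a setting added after seeing the data, edgeR called no difference between treatments at 8 or 19 dpi. The higher EAE value of A, 3.84% in mouse 551, came from a total of only 17439 counts. The call for C was lost without the poorly covered sample of EAE mouse 555, chosen for that test after seeing the data (edgeR adjusted p = 0.0576). At 19 dpi A was in 4 of 6 naïve and 0 of 6 CFA mice (edgeR adjusted p = 0.0424), where 12.7% of sequences were called. Fisher's exact test of presence gave p = 0.0606 for A there, unadjusted, and did not pass after adjustment.

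**Figure D5:**
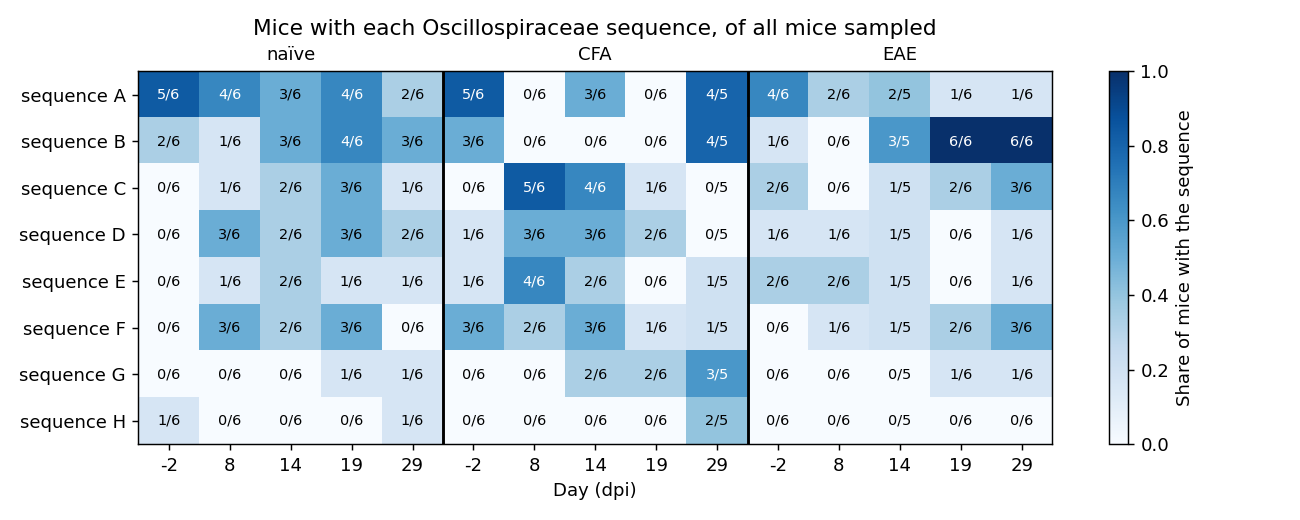
Number of mice with each of the 8 sequences of highest mean share (rows), of all mice sampled, by treatment and day in dpi (columns), with darker cells for larger shares. Sequence B is in 6 of 6 EAE mice at 19 and 29 dpi and in no CFA mouse at 8, 14 or 19 dpi, while in CFA mice A is in 5 of 6 at -2 dpi and C in 5 of 6 at 8 dpi.

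The share of sequence tests called in Oscillospiraceae was near the background. Of the 15 sequences, 9 had counts in at least 3 samples and were tested in 39 comparisons each. edgeR called 19 of these 351 tests (5.41%), against a background of 5.08% over the 204 sequences of the series. Of the 19, 11 were between treatments, 0 were against -2 dpi within a treatment and 8 were differences of change between treatments. In each of the 11, 1 group had no mouse with the sequence. Of the 3 calls of EAE against naïve mice at 29 dpi (edgeR adjusted p = 0.0495 for each), those of H and I rested on 1 positive mouse each and that of F on 3, so a call by this test can rest on a single animal. In that comparison 33.8% of sequences were called. Fisher's exact test of presence called 0 of 135 Oscillospiraceae tests, with 2 at an unadjusted p under 0.05, and 0 over all sequences (background of 0%). DESeq2 called 80 (22.8%), of which 27 were against -2 dpi within a treatment, with 50 adjusted p-values missing. The share that DESeq2 called over all sequences is not given, so the 80 have no background to be read against. Sequences within 3 mismatches were also merged over the whole series, a setting added after seeing the data. There 3 of 195 tests were called (1.54%), in place of 19 of 351. The share called over all merged sequences is not given. The merged groups that hold A, B and C were not among the 3.

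Within a mouse, the leading sequence often changed from one sampling day to the next. On successive days it was the same in 8 of 20 pairs of samples of naïve mice. For CFA mice this was 4 of 20 and for EAE mice 5 of 14. Here and in the next counts, only pairs in which both samples held the family were used. At least 1 sequence was shared between successive days in 16 of 20, 11 of 20 and 10 of 14. Between mice of the same treatment on the same day, the leading sequence was shared in 33.8% of pairs of naïve, 47.5% of CFA and 40.4% of EAE mice. These counts are a description, with no test run.

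The family name itself was uncertain for 2 rare sequences. Sequence K, in 2 samples with 380 counts, was identical to 7 ASVs with 2139 counts that the authors named Flintibacter of the Ruminococcaceae. Sequence L, in 1 sample with 65 counts, was identical to 5 ASVs with 370 counts named Ruminiclostridium_C-Clostridium IV, also of the Ruminococcaceae. The same primer-free sequence thus got different family names by primer variant. Both were kept as the taxonomy gives them, and neither was in enough samples to be tested.

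In EAE mice the family's share was set beside disease. At 19 dpi the 6 mice had clinical scores of 2, 2, 0, 4, 4 and 3.5 with Oscillospiraceae at 2.30%, 0.620%, 1.86%, 2.96%, 2.95% and 0.812%. Pearson's r was 0.33 (exact permutation p = 0.539, n = 6) and Spearman's rho 0.62 (exact permutation p = 0.244, n = 6). At 29 dpi r with the score was -0.05 (exact permutation p = 0.933, n = 6) and rho 0.06 (exact permutation p = 0.939, n = 6). Pearson's r between the family's share and weight was -0.74 (exact permutation p = 0.0903, n = 6) on day 19. It was -0.68 (exact permutation p = 0.0917, n = 6) on day 29, and rho was -0.60 on both days (exact permutation p = 0.242, n = 6). Adjusted over the 4 relations, the lowest p was 0.183 for r and 0.326 for rho. Without the 2 mice farthest from the median weight, r turned to 0.40 at 19 dpi and 0.46 at 29 dpi. At 29 dpi the negative relation with weight rested on those mice. At 19 dpi mice 589 (16.1 g) and 591 (15 g) lay equally far from the median weight, so the 0.40 depends on which was left out. Without the 2 mice farthest from the median score, r was 0.36 at 19 dpi and -0.47 at 29 dpi.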

How the data were processed

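Counts of reads per ASV and sample were deposited by the authors, who inferred ASVs with DADA2 (version not given in the sources used here) and curated the names by hand from several databases. The counts were not scaled. Primers, left on the reads, were removed here with the primer sequences in the labels. Counts were summed by family, genus, species and primer-free sequence. A CFA sample with a total of 0 and the 2 water controls were not analysed here. Members, lists and tests were chosen with earlier results of these data known.

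All taxa found in 3 or more samples were fitted together with edgeR 4.0.16 in R 4.3.3 (quasi-likelihood test, 1 mean per group of treatment and day, TMMwsp factors from genus counts), with DESeq2 1.42.0 as an alternative. Percents were tested with exact permutation tests and presence with Fisher's exact test (SciPy 1.17.1). P-values were adjusted by Benjamini-Hochberg over the taxa of a comparison, with a threshold of 0.05. The tests were checked on simulated data. The simulated counts had less spread than the counts here, and no group was made to lack a taxon. That check therefore does not cover sequence calls in which 1 group had no mouse with the sequence. Depths ranged from 9202 to 102437 counts, and floors of 3 counts cover counting error only, since PCR reads are not independent molecules. Mouse numbers in the labels name the animal, and paired naïve and CFA mice across days and EAE mice between -2 and 8 dpi. From 14 dpi the EAE mice bear other numbers and were compared unpaired with -2 dpi. The subject number of the deposited sample table joins the earlier and later numbers. It served as an alternative block for family counts and was not used in the percent tests. Named taxa were every genus and species, the 8 sequences of highest mean percent, the related families, and the 5 and 3 genera with the highest and lowest rank correlation. Sequences I to O were named after their values were seen.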

Additional observations from a re-analysis of the deposited data

Results flagged for a closer look

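Dixon's limit was applied to 59 groups of 5 or 6 mice, over the family and its 3 species. In 13 of them 1 mouse lay farther from the nearest other than the limit allows. A group with 1 positive mouse and all others at 0 is always flagged, so the usual rate of about 1 in 20 does not apply. The family and its species also share counts. For the family the flagged mouse was naïve mouse 559 at -2 dpi, with 1.64%. For Oscillibacter_NA the mice were CFA 545 at 19 dpi with 1.17%, EAE 551 at 8 dpi with 3.84%, naïve 561 at 19 dpi with 2.32%, and, on the low side, naïve 563 at -2 dpi and naïve 559 at 14 dpi, both with 0. For Oscillibacter_sp6 they were CFA 545 at 19 dpi with 0.367%, EAE 557 at 8 dpi with 0.232%, EAE 595 at 14 dpi with 0.498%, EAE 593 at 29 dpi with 0.852%, naïve 561 at -2 dpi with 0.234%, naïve 562 at 14 dpi with 0.447% and naïve 562 at 29 dpi with 0.417%. In most groups of this species the other mice were at 0.

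The change of a sequence since -2 dpi differed between treatments in 8 of 108 tests (7.41%) by edgeR's quasi-likelihood test with Benjamini-Hochberg adjustment. Between EAE and naïve mice these were sequence C at 8 dpi (adjusted p = 0.0148), sequence D at 19 dpi (adjusted p = 0.0121) and sequence E at 19 dpi (adjusted p = 0.0131). Between EAE and CFA mice they were sequence A at 8 dpi (adjusted p = 0.0415), sequence C at 8 dpi (adjusted p = 0.00297), sequence B at 14 dpi (adjusted p = 0.0448) and sequence B at 19 dpi (adjusted p = 0.0415). Between CFA and naïve mice it was sequence E at 19 dpi (adjusted p = 0.0377). Each of these rests on groups in which a sequence was absent from all mice, so no size is given. Over all sequences and all 39 comparisons 5.08% of tests were called, and the share for changes alone is not given. With near-identical sequences merged, a setting added after seeing the data, 2 of 60 tests of change were called (3.33%). Both calls were of sequence D, which merged with no other. The share over all merged sequences is not given.

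Reads outside the family carried sequences identical to its members, with 2139 counts of sequence K and 370 counts of sequence L under the name Ruminococcaceae.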

How the results depend on the processing

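Of 249 recomputed values, 236 stayed the same. For a single value this means the same direction and side of the threshold, and for a number of calls an equal or similar number. With percents as centred log ratios, 2 of 15 comparisons between treatments passed instead of 0. Both were at 14 dpi, where EAE mouse 591 and naïve mouse 559 were at 0. The share of families called on that scale is not given. As a percent of Clostridiales, 1 of 3 late comparisons passed instead of 0. For EAE minus naïve mice over 14, 19 and 29 dpi, 0.239 percentage points of all counts became -0.368 outside Lactobacillaceae, -1.66 of Clostridiales, -0.246 log2 units as centred log ratio, and -0.201 when 60 ASVs of related genera were added. CFA minus naïve at 14 dpi, 1.29, became -0.617 as a percent of Clostridiales. The causes were not tested. Leaving out each mouse, chosen after seeing the data, kept the Clostridiales difference between -1.90 and -1.34. The 19 sequence calls became 80 with DESeq2, 16 over ASVs as deposited, and, in settings added after seeing the data, 3 with near-identical sequences merged and 0 by Fisher's exact test of presence. These settings differ in the number of tests, with 351 in the main setting, 1131 over ASVs and 195 merged. The shares called over the whole series by DESeq2, over ASVs and with sequences merged are not given. The call of sequence C for EAE minus CFA at 8 dpi was lost without EAE mouse 555 (edgeR adjusted p = 0.0576). With the mouse number as a replicate block 0 of 15 family tests passed, with the subject number of the deposited sample table as the block 0 of 24, and without each mouse of the groups of 5 also 0, so the block changed no call, while it moved EAE values at 8 dpi, to -3.34 on the log2 scale against -2 dpi from -0.86. At the lowest total, 3 counts were 0.0326% of a sample.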
